A study of Mus musculus with 6 samples.

Results

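Mitochondrial carriers of the Slc25 family were described in RAW264.7, an established line of mouse macrophage-like cells. RANKL, the cytokine that drives osteoclast formation, turns these cells into osteoclast-like cells. The genes were taken as the rows of the deposited table whose symbol begins with Slc25a, which were 37 of 11031 rows. The series holds 3 RANKL-stimulated samples and 3 untreated control samples of this line, all collected at day 3, and no allele or other agent is named for either group. The study set RANKL against control to follow osteoclast differentiation. The headings of the library columns cannot be tied to any of the 6 samples, so no value could be given to RANKL or to control samples, and the columns of the authors' own comparison were not used. Every level below is therefore the authors' mean FPKM on a log2 scale, over libraries that the header does not name, without SD and without a test. FPKM is scaled by transcript length, so levels can be set beside each other between genes. Fewer cells of a type and less RNA per cell cannot be told apart in such bulk samples.

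Members of this family span the mitochondrial inner membrane and exchange nucleotides, phosphate, amino acids, carboxylates and cofactors between cytosol and matrix. The ADP/ATP carriers and the phosphate carrier supply ATP synthase with its substrates, and the mitoferrins bring in iron for heme and iron-sulfur clusters. Osteoclasts are known for many mitochondria and a high demand for ATP and iron. A few family members lie elsewhere, such as Slc25a17 in the peroxisome and Slc25a46 in the mitochondrial outer membrane.

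The annotation of GENCODE M21 has 47 protein-coding genes with such a symbol, of which 37 were rows of the table. The other 10, namely Slc25a2, Slc25a18, Slc25a21, Slc25a27, Slc25a29, Slc25a31, Slc25a34, Slc25a41, Slc25a48 and Slc25a54, were not analysed here. Among them, Slc25a31 is the testis form of the ADP/ATP carrier and Slc25a2 an ornithine carrier. All 37 members carried the mitochondrial carrier domain in the Pfam annotation of the table. That domain was given to 42 rows in all, and the 5 that are not members were Ucp2 at 7.30, Mtch1 at 5.86, Mtch2 at 5.39, an assembled locus at 1.15 and Gm16867 at 0.95 on the log2 scale. Ucp2 encodes an uncoupling protein, and Mtch1 and Mtch2 encode carrier-like proteins of the outer membrane.

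Markers of cell types were looked up, which can speak to lineage but cannot tell RAW264.7 from other macrophages. Of 5 macrophage markers 4 were rows of the table, led by Cd68 at 9.53 and the M-CSF receptor gene Csf1r at 8.65, while Mrc1 was not among the rows. All 9 osteoclast markers were rows, with levels between 0.45 (Calcr) and 6.74 (Ctsk). None of the 7 fibroblast, T cell and B cell markers was a row, and of 3 dendritic cell markers only Zbtb46 was, at 1.06.

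Carriers with one KEGG orthology are close relatives, and their sequences decide whether reads can be assigned to a single gene. The following stretches are the 60 aligned coding bases in which each of 3 pairs is most alike, read from the GENCODE M21 transcripts on GRCm38, and capitals mark the bases that differ within the pair. Positions are counted from the first base of the start codon. The pairs are the ADP/ATP carriers (bases 62 to 121 of both genes), the mitoferrins (bases 601 to 660 of Slc25a37 and 682 to 741 of Slc25a28) and the pyrimidine nucleotide carriers (bases 40 to 99 of Slc25a33 and 25 to 84 of Slc25a36).
Slc25a5: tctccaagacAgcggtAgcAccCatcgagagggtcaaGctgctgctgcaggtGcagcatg
Slc25a4: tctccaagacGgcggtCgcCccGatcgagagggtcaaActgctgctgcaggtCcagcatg
Slc25a37: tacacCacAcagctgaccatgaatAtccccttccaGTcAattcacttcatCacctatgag
Slc25a28: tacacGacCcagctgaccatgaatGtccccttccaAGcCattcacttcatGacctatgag
Slc25a33: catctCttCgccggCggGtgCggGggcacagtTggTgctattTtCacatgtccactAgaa
Slc25a36: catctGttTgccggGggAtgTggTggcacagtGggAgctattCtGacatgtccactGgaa

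Even in these stretches the ADP/ATP carriers differed at 6 of 60 bases, the mitoferrins at 7 and the pyrimidine nucleotide carriers at 11. Over their whole coding sequences Slc25a5 and Slc25a4 were 77.4% identical over 894 bases, and 146 of their 202 differences (72.3%) lay at the third codon position, where many changes leave the amino acid as it is. The mitoferrins were 69.1% and the pyrimidine nucleotide carriers 63.9% identical over aligned bases. The table held 8 orthology groups with more than 1 member, which make 10 pairs of 17 genes, and their identity was between 58.4% and 77.4%. The longest identical run in any pair was 23 bases, in Slc25a23 and Slc25a25, and 0 of the 10 pairs shared a coding word of 50 bases.

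Words of 50 bases were shared with genes that bear other symbols. Of the 37 members, 23 shared no such word with any other annotated gene and 14 shared some. Slc25a5 stood out, since 33.8% of its words occurred in other genes, and all 9 of these genes are annotated as pseudogenes. The coding word of Slc25a5 found in the most other genes, bases 253 to 302, occurred unchanged in 5 pseudogenes and is shown here because a read that lies within it matches several genes.
Slc25a5: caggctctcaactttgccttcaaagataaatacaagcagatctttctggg

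The next highest shares were 6.99% for Slc25a37, all with Gm16867, 6.70% for Slc25a36, all with the pseudogene Gm13217, and 5.61% for Slc25a20, spread over 95 genes. Gm16867 is the row with the carrier domain named above, and Slc25a37 was at 4.42 against 0.95 for Gm16867. How the authors' counting treated reads with several origins is not given in the sources used here, so the level of Slc25a5 is the least certain among the members by this measure. The word length of 50 bases was a setting of the lookup and was not taken from the reads. A longer read, or the other end of a fragment, can reach bases that differ between the genes.

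Slc25a5, the ADP/ATP carrier of growing cells, had the highest level of the family at 9.41, rank 97 among all rows. It is followed by the phosphate carrier Slc25a3 at 8.64 (rank 161), the glutathione carrier Slc25a39 at 7.06 (rank 468), the second ADP/ATP carrier Slc25a4 at 6.87 (rank 541) and the oxoglutarate/malate carrier Slc25a11 at 6.17 (rank 970). These 5 genes, 13.5% of the members, were the only ones in the top 10% of rows, whose bound lay at 6.02. On a linear scale the level of Slc25a5 corresponds to 682 FPKM, or to 681 if the authors had added an offset of 1 before taking logs. Linear values and sums of FPKM are given without an offset unless one is named, and which reading holds was not tested. Slc25a5 held 37.4% of the summed FPKM of the 37 genes, and together with Slc25a3 it held 59.2%. The 5 highest genes held 76.9% of the sum, whereas the 19 lowest held 7.74%.

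**Figure D1:**
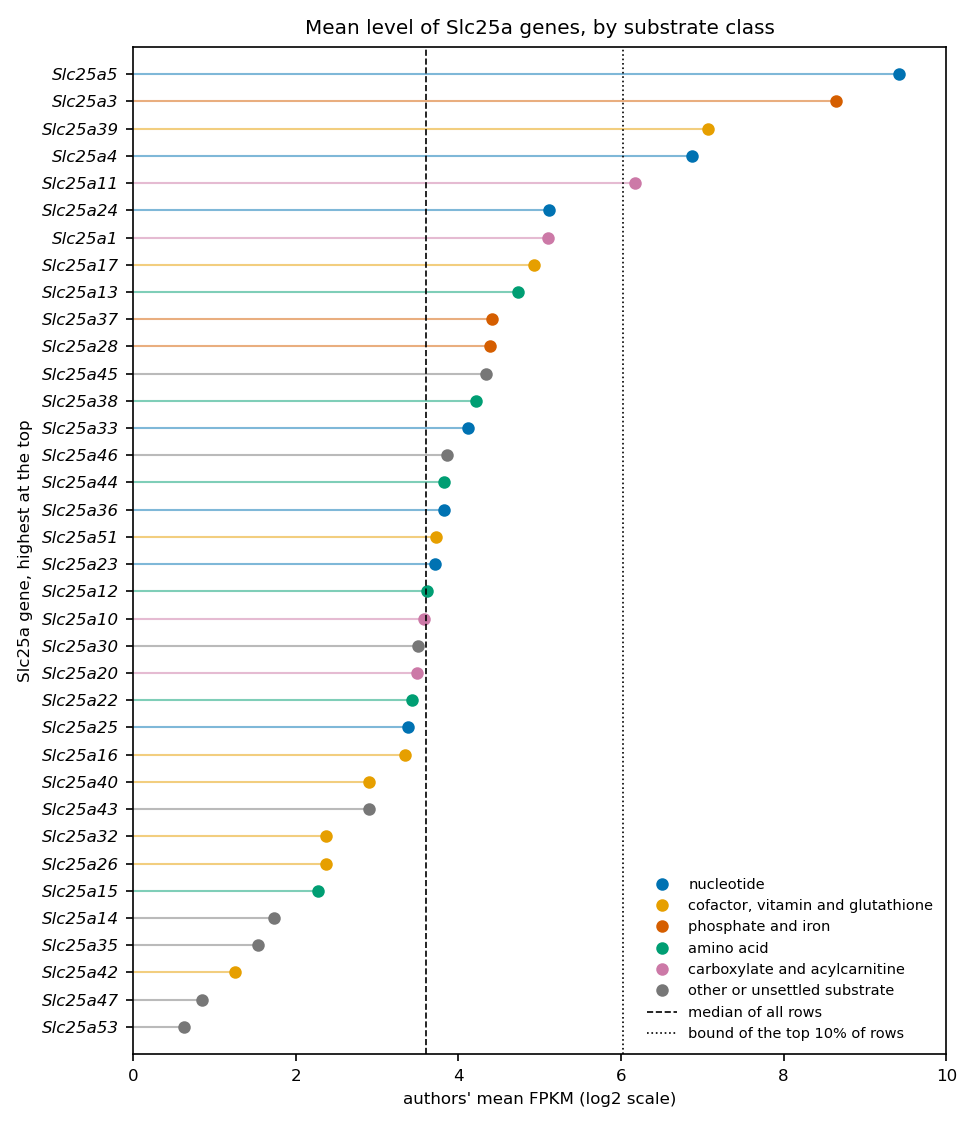
Mean level of 36 of the 37 Slc25a genes (horizontal axis, the authors' mean FPKM on a log2 scale), ordered from the highest at the top and coloured by the class of substrate, with 1 point a gene and no error because values per replicate were not used. The dashed line is the median of all 11031 rows at 3.60 and the dotted line the bound of the top 10% at 6.02, which 5 of the 37 genes passed.

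Below these 5 the levels were mostly closely spaced. The largest steps between neighbours in the order were 1.57 from Slc25a3 to Slc25a39 and 1.05 from Slc25a11 to Slc25a24. Of the 36 steps, 6 were over 0.5 and 18 were 0.1 or less. Without a spread over samples no neighbours in the order can be told apart by a test, whatever the size of the step. In bands of the log2 scale, 9 genes lay between 4 and 6, 12 between 3 and 4, 6 between 2 and 3, and 5 at or below 2.

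The 37 members as a set lay close to the middle of the table. The 10 annotated genes of the family that were not rows do not enter their median, and the filter on rows is not given. The median of the members was 3.71 against 3.60 for the 10994 other rows, and 20 of 37 (54.1%) were at or above the median of all rows, against 5496 of the 10994 other rows. The levels covered 8.79 log2 units, down to 0.62 for Slc25a53, whose substrate is not settled. The 834 other rows annotated to the mitochondrial inner membrane in the table had a median of 4.20, and 62.0% of them were at or above the median of all rows. These rows were taken by the annotation alone, which also gives the term to the receptor gene Ddr1, their lowest row at 0.19, and were not checked further. The quartiles of the members were 2.90 and 4.42, against 2.99 and 5.42 for these other inner membrane rows. The members together held 0.401% of the summed FPKM of the table.

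**Figure D2:**
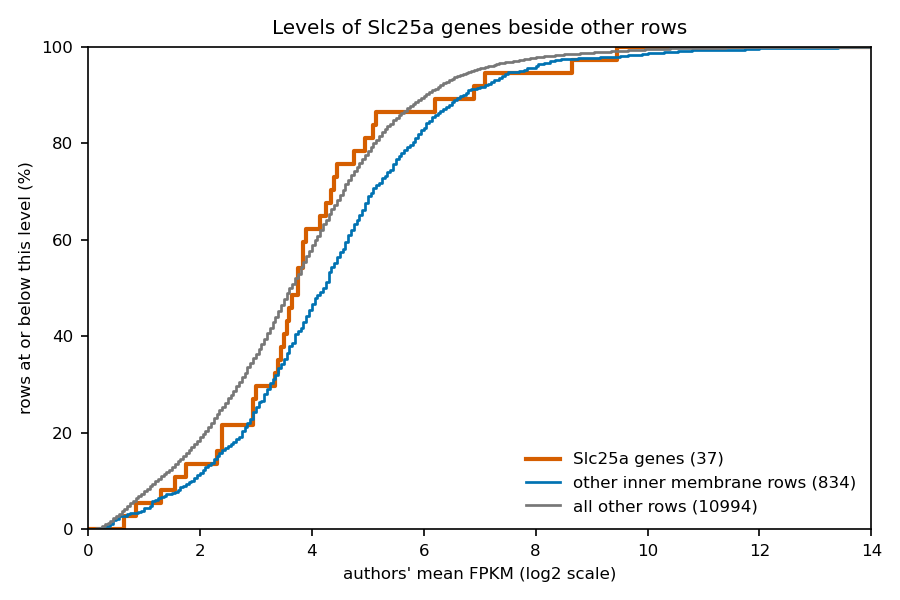
Percent of rows at or below each level (vertical axis) against the authors' mean FPKM on a log2 scale (horizontal axis) for the 37 Slc25a genes, 834 other rows annotated to the mitochondrial inner membrane and all 10994 other rows. The curve of the Slc25a genes crosses the middle at 3.71, between 3.60 for all other rows and 4.20 for the other inner membrane rows.

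The 7 nucleotide carriers held 48.7% of the summed FPKM of the family, the largest part of any class with Slc25a5 counted. Without Slc25a5, which alone held 37.4%, their part was 18.1%, below phosphate and iron carriers at 38.6% and cofactor, vitamin and glutathione carriers at 18.9%. The class had a median of 4.11, with 6 of 7 genes at or above the median of all rows. Besides Slc25a5 and Slc25a4, the calcium-regulated ATP-Mg/phosphate carriers were at 5.12 for Slc25a24, 3.71 for Slc25a23 and 3.39 for Slc25a25. The pyrimidine nucleotide carriers, which bring these nucleotides into the matrix for mitochondrial DNA and RNA synthesis, were at 4.11 for Slc25a33 and 3.82 for Slc25a36. Slc25a25 was the lowest of the class.

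Phosphate and iron carriers held 24.2% of the sum, nearly all of it in Slc25a3. Its product also carries copper for cytochrome oxidase. The mitoferrins Slc25a37 and Slc25a28 were at 4.42 and 4.39, a difference of 0.03 that gives no order. In erythroid cells Slc25a37 is the main iron importer, and Slc25a28 is the broadly expressed form.

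Carboxylate and acylcarnitine carriers had a median of 4.34 and held 7.09% of the sum. The highest after Slc25a11 was the citrate carrier Slc25a1 at 5.10, which exports citrate for fatty acid and sterol synthesis. The dicarboxylate carrier Slc25a10 at 3.58 and the carnitine/acylcarnitine carrier Slc25a20 at 3.49, which fatty acid oxidation needs, were both just below the median of all rows. Slc25a11 and the aspartate/glutamate carriers form the malate-aspartate shuttle, which moves reducing equivalents from cytosolic NADH into the matrix.

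Amino acid carriers had a median of 3.72, with 4 of 6 at or above the median of all rows and 0 of 6 in the top 10%. The aspartate/glutamate carrier Slc25a13 was at 4.73 and its relative Slc25a12 at 3.62. The glycine carrier Slc25a38, needed for heme synthesis, was at 4.22 and the branched-chain amino acid carrier Slc25a44 at 3.82. The glutamate carrier Slc25a22 was at 3.43 and the ornithine carrier Slc25a15, a part of the urea cycle in liver, was the lowest at 2.28.

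Of the 9 cofactor, vitamin and glutathione carriers 3 were at or above the median of all rows, with Slc25a39 as the third highest gene of the family, and the class held 11.8% of the sum. The peroxisomal carrier Slc25a17 was at 4.93 and the NAD carrier Slc25a51 at 3.73. Slc25a16, linked to coenzyme A transport, was at 3.35 and the second glutathione carrier Slc25a40 at 2.90. The folate or FAD carrier Slc25a32 was at 2.38, the S-adenosylmethionine carrier Slc25a26 at 2.37 and the coenzyme A carrier Slc25a42 at 1.25.

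The 8 genes of other or unsettled substrate had the lowest median, 2.32, and held 3.46% of the sum. Slc25a45 was the highest at 4.34 and the outer membrane protein gene Slc25a46 was at 3.86. Slc25a30 was at 3.50, Slc25a43 at 2.90, Slc25a14 at 1.73, Slc25a35 at 1.53 and Slc25a47, known as a liver gene, at 0.84. Together with Slc25a53 and Slc25a42, the genes Slc25a14, Slc25a35 and Slc25a47 were the 5 at or below 2. These genes lie where an added offset of 1 would matter most, as 0.62 for Slc25a53 equals 1.54 FPKM without an offset and 0.54 FPKM with one.

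Relatives within an orthology group differed in level by 0.03 to 4.16 log2 units over the 10 pairs, in a family that spans 8.79 log2 units. Whether relatives differ more or less than other members of the family was not tested. The largest difference was that of the glutathione carriers, with Slc25a39 higher than Slc25a40 by 4.16 log2 units, at 59.0% coding identity. Slc25a45 was above Slc25a47 by 3.49, Slc25a5 above Slc25a4 by 2.54 and Slc25a30 above Slc25a14 by 1.78. Slc25a24 exceeded Slc25a25 by 1.73 and Slc25a23 by 1.41, and Slc25a13 exceeded Slc25a12 by 1.11. The other 3 differences were 0.32 for Slc25a23 over Slc25a25, 0.30 for Slc25a33 over Slc25a36 and 0.03 for the mitoferrins. The value of Slc25a5 carries the 33.8% of shared words given above, and the part of those words in its difference to Slc25a4 was not tested.

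**Figure D3:**
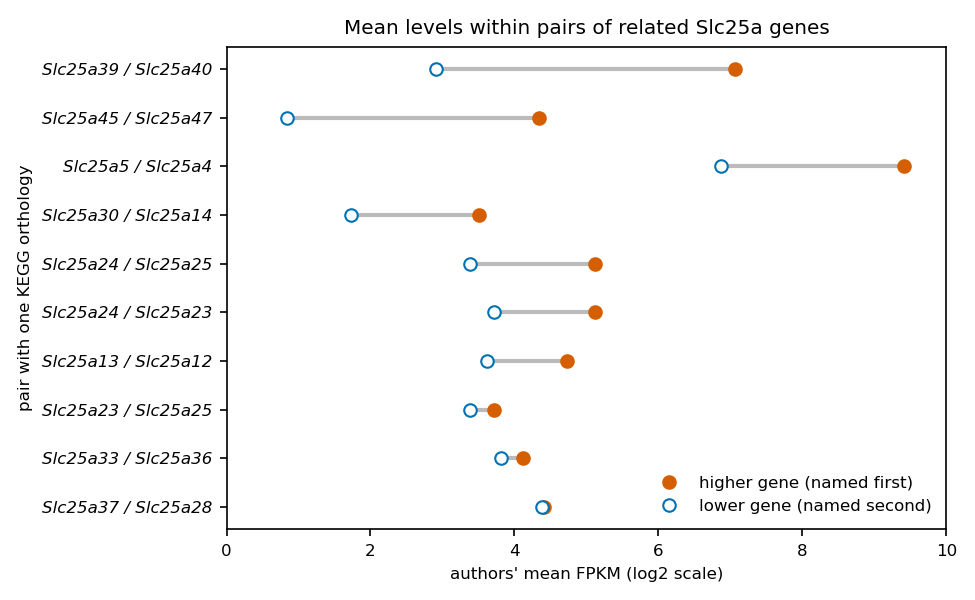
Levels of both genes in the 10 pairs of Slc25a genes with a common KEGG orthology (horizontal axis, the authors' mean FPKM on a log2 scale), with the higher gene filled and named first, ordered by difference. The difference is 4.16 for Slc25a39 over Slc25a40 at the top and 0.03 for Slc25a37 over Slc25a28 at the bottom.

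The members are spread over 18 chromosomes, with the most on chromosome 11 and on X. Chromosome 11 had 5 genes, or 13.5% of the members, against 8.58% of all rows placed in the annotation. On X were 4 genes, or 10.8%, against 2.95%. Whether these parts differ from those of all rows was not tested. Slc25a5 lies on the plus strand of X at 36795651 to 36798807 in GRCm38 and has 4 exons. Its closest family neighbour, Slc25a43, ends 18448 bases before it on the same strand, and with 9.41 for Slc25a5 and 2.90 for Slc25a43 this closest pair differed by 6.51. The genes of the minus strand include Slc25a3 (chromosome 10, 91116574 to 91124059), Slc25a39 (chromosome 11, 102402985 to 102407946) and Slc25a4 (chromosome 8, 46206797 to 46211284). GENCODE lists all 37 as protein-coding, with 3 exons in Slc25a51 to 18 in Slc25a12 and Slc25a13 and a median of 8. Coding length was between 822 bases in Slc25a26 and 2031 bases in Slc25a12, without the stop codon, and the levels cover whole genes without distinction of isoforms.

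The Slc25a genes had a lower median than a list of other mitochondrial transport and carrier import genes. The list held 35 genes chosen by function, of which 32 were rows of the table. Of these 32, Ucp2, Mtch1 and Mtch2 carry the carrier domain themselves. The median was 3.71 for the 37 members against 4.97 for these 32 genes, and 20 of 37 members were at or above the median of all rows, against 26 of 32 (81.3%). Without those 3 genes the median of the other 29 was 4.91, and 23 of 29 (79.3%) were at or above the median of all rows. By class of the list, medians ran from 3.47 for the 4 sideroflexins, below that of the members, to 7.40 for the 3 outer membrane pores. The pores of the outer membrane, through which metabolites pass before they reach the carriers, were at 7.96 for Vdac2, 7.40 for Vdac1 and 6.54 for Vdac3, below Slc25a5 and Slc25a3. The 11 genes for import and insertion of carrier proteins had a median of 4.96 and ranged from 3.22 for Timm22, the inner membrane insertase, to 5.79 for the outer membrane channel Tomm40. The pyruvate carrier genes Mpc2 and Mpc1 were at 5.33 and 4.86. Of the calcium uniporter complex, the regulator gene Smdt1 was at 6.76 and the pore gene Mcu at 3.23. Sideroflexins were at 4.97 for the serine carrier Sfxn1 and at 1.14 to 4.56 for the other 3 in the table, and the ABC transporters at 1.14 for Abcb10 to 4.32 for Abcb8.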

How the data were processed

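The series holds RNA sequencing of 3 RANKL-stimulated and 3 control RAW264.7 samples. Per the labels, poly(A)-selected RNA was copied with dUTP in the second strand, which keeps strand, and read from both ends. The submitters' processing notes name DESeq and mm10, and the study's methods name DESeq2. The aligner, the counter, the annotation release and the filter on rows are not given in the sources used here. In the 1 table that the authors deposited, the single column of values used from it is the mean FPKM (fragments scaled by transcript length and library size) on a log2 scale. Its header names neither base, offset nor libraries. The lowest of the 11031 rows was at 0.02 and none lay at or below 0. An offset of 1 would put every row above 0, and without one every row would have to be above 1 FPKM. The rows thin out toward 0, as 0.00910% of all other rows lay at or below 0.05, 0.0273% at or below 0.1 and 0.164% at or below 0.15. No offset was settled. A base of 2 was taken because, with GENCODE M21 transcript lengths, it assigned 54.8% of fragments to 10915 rows, whereas a natural log scale would need 719%.

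The 12 library columns could not be tied to a sample through their headings and were not used. The 4 columns of the authors' own comparison, with fold changes, p-values, adjusted p-values and a direction, were not used either. For that reason no test between RANKL and control was run, depth is unknown, and no value here has a spread over replicates. The planned count test and the planned description of the comparison were dropped.

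Members were the rows whose symbol begins with Slc25a. Ranks, medians and sums were computed with pandas 2.3.3. Classes by substrate were drawn from textbook roles after the table had been opened. Members and lists were chosen with earlier results of these data known. The naming rule asked for members by fold change, which could not be applied, so it was followed for level and for the fixed carriers, and the other members are given by value, except 1 that enters the counts and sums but is not reported here by name. Distinct 50-base words of all annotated transcripts of each member were looked up on the same strand in transcripts of every other gene in GENCODE M21 (GRCm38, the assembly also called mm10). Coding sequences of the longest-coding basic transcript were aligned with Biopython 1.88, with 1 for a match, -1 for a mismatch, -5 to open a gap and -0.5 to extend it. The percentile and the lookup were tested on simulated data.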

Additional observations from a re-analysis of the deposited data

How the results depend on the processing

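The count of members at or above the median of all rows was 20 of 37, and it stayed at 20 when ranks were taken among rows with a gene symbol. With Ucp2, Mtch1 and Mtch2 added it was 23 of 40, and without Slc25a5, the member that shares over 10% of its 50-base words, it was 19 of 36. The count for the other transport genes was 26 of 32 under both rankings, and 23 of 29 without Ucp2, Mtch1 and Mtch2. The part of Slc25a5 and Slc25a3 in the summed FPKM was 59.2%, against 60.3% with an offset of 1 taken off, and with Slc25a5 left out of the sum Slc25a3 alone held 34.9%, while the part of the nucleotide carriers was 18.1% against 48.7% with it. All of these settings except the ranking of members by rows with a gene symbol were chosen after seeing the data. No paired analysis was possible because the library columns could not be tied to any sample, and for the same reason the alternatives planned for the test between RANKL and control, with each replicate left out, were not run. The thresholds and centring planned for the authors' comparison were not run because its columns were not used. Depth is unknown, and no interval is given for any level.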
